A study of Mus musculus with 12 samples.

Results

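A set of 10 genes, of 55862 in the deposited table, that are used to recognise inhibitory interneurons were followed across astrocytes, astrocyte-derived spheres and brain-derived cells of the mouse. They were taken by gene name: Gad1, Gad2 and Slc32a1, Pvalb, Calb1 and Calb2, and Sst, Npy, Cck and Vip. The set was chosen by FPKM values of these same samples, compared between the groups, so the levels and differences of the 10 genes are given as a description, with no p-value. The study sequenced RNA of mice labelled C57BL/6 (its methods give C57BL/6J for both brain suspensions) in 4 groups with 3 samples per group, 12 in all. ASTs were cortical astrocytes of newborn mice in primary culture, grown in medium with serum and taken at day 0 of sphere culture as the negative control. A-iSCs were the same cells after 5 days of sphere culture on an agarose surface. The P56-NPC samples were suspensions from the adult subependymal zone (postnatal day 56), and the P0-NPC samples were suspensions from the hippocampus at postnatal day 0, made by a different dissociation and centrifugation protocol, so age, brain region and preparation cannot be told apart between them. Neither suspension was described as sorted, so both could hold every cell type of the dissected tissue. The labels do not say whether the samples of a group came from separate cultures or animals, so the spread between them may be technical.

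Interneurons are the local inhibitory neurons of the forebrain and release GABA. GABA is made from glutamate by the decarboxylases of Gad1 and Gad2 and loaded into synaptic vesicles by the transporter of Slc32a1. Classes of interneurons are told apart by the calcium-binding proteins parvalbumin (Pvalb), calbindin (Calb1) and calretinin (Calb2) and by neuropeptides such as somatostatin (Sst), neuropeptide Y (Npy), cholecystokinin (Cck) and vasoactive intestinal peptide (Vip). None of the calcium-binding proteins or peptides is confined to interneurons. Parvalbumin is also abundant in fast skeletal muscle, and Cck and Calb1 are also found in excitatory neurons.

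Levels are given in FPKM, fragments scaled for gene length and library size, a scale on which genes can be compared per length. The library size behind the deposited values was 0.941 to 0.985 times the counted fragments in ASTs, 1.10 to 1.15 times in A-iSCs, 0.744 to 0.779 times in P56-NPCs and 1.15 to 1.22 times in P0-NPCs, so folds between groups include a scaling between samples. Recovered fragments ranged from 17077780 to 24452419 per sample. The counts of fragments behind the values and the intervals drawn from them cover counting error only. In RNA from mixed cells, fewer cells of a type and less RNA per cell cannot be told apart. The astrocyte markers summed to 143 to 161 FPKM in ASTs and 1211 to 2466 FPKM in A-iSCs, and all 8 had a mean of at least 1 FPKM in both. Of 8 neural stem and dividing cell markers, 2 were called higher and 5 lower in P56-NPCs than in ASTs (limma). P56-NPCs had the lowest mean of the 4 groups for the precursor gene Nes, 3.76 FPKM ± 0.246 (SD, n = 3), the highest for Hes5, 19.8 ± 4.39, and 107 ± 12.7 FPKM of Sox2. Oligodendrocyte markers summed to 10825 to 12337 FPKM in P56-NPCs. Mitochondrial genes took 16.5 to 17.6% of fragments in P56-NPCs and 2.94 to 7.03% in the other samples. Pan-neuronal markers summed to 119 to 160 FPKM in ASTs, 89.7 to 106 FPKM in A-iSCs, 407 to 494 FPKM in P56-NPCs and 1029 to 1262 FPKM in P0-NPCs. Of 8 of them tested in A-iSCs over ASTs, 3 were called higher and 2 lower, and Stmn2 alone went from a mean of 53.8 to one of 7.16 FPKM. Glutamatergic markers summed to 1.75 to 1.95, 2.0 to 2.88, 389 to 438 and 213 to 263 FPKM in the same order, so markers of excitatory neurons were also present in both suspensions. Camk2a made up most of the P56-NPC sum (391 FPKM ± 24.5), and 6 of the 8 markers were called lower, 2 higher, in P56-NPCs over P0-NPCs. The part of cell composition in the differences below was not tested.

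The 3 genes of GABA synthesis and storage had the same order in all cases: P56-NPC, P0-NPC, A-iSC, AST, with no overlap between neighbouring groups. Gad1 was at 0.164, 0.219 and 0.134 FPKM in the AST samples and at 2.42, 1.66 and 1.05 FPKM in the A-iSC samples. It reached 16.4, 16.2 and 15.9 FPKM in P56-NPCs and 4.02, 6.49 and 4.67 FPKM in P0-NPCs. The mean of A-iSCs was thus 9.93-fold that of ASTs and 9.44-fold below that of P56-NPCs. Gad2 was at 0.0710, 0.0420 and 0.0916 FPKM in ASTs and at 1.10, 0.909 and 0.540 FPKM in A-iSCs, a ratio of means of 12.4. In P56-NPCs it was at 14.5, 15.4 and 11.5 FPKM, and in P0-NPCs at 5.86, 5.44 and 5.78 FPKM. Replicate 3 held the lowest Gad1 and Gad2 of the A-iSC samples. Slc32a1 was almost undetected in ASTs, with 1 fragment in replicate 1 (0.0213 FPKM) and 0 in the others. A-iSCs held 0.248, 0.316 and 0.147 FPKM of it, from 14, 21 and 11 fragments, and the ratio of summed fragments to ASTs, scaled by the library sizes behind the FPKM, was 36.2 (95% counting interval 6.18 to 1459). It stood at 20.0, 19.8 and 19.1 FPKM in P56-NPCs and at 3.42, 3.98 and 2.97 FPKM in P0-NPCs. In A-iSCs the vesicular transporter therefore remained below 1 FPKM, 82.9-fold lower than in P56-NPCs and 14.6-fold lower than in P0-NPCs. Of the 2797 exon bases of Slc32a1, 24.9% also lie in the antisense gene Gm14205, which held 0 to 2 fragments in any sample.

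The balance within this trio differed between groups. Gad1 made up 64.7 to 68.8% of the summed Gad1 and Gad2 level in A-iSCs, 51.4 to 57.9% in P56-NPCs and 40.7 to 54.4% in P0-NPCs, and its share in ASTs spread from 59.4 to 84.0% on few fragments (5 to 34 per gene and sample). Slc32a1 stood at 1.20 to 1.22 times the Gad1 level in P56-NPCs, 0.613 to 0.852 times in P0-NPCs and 0.103 to 0.190 times in A-iSCs. The ranges of these 3 groups did not overlap for that ratio.

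**Figure D1:**
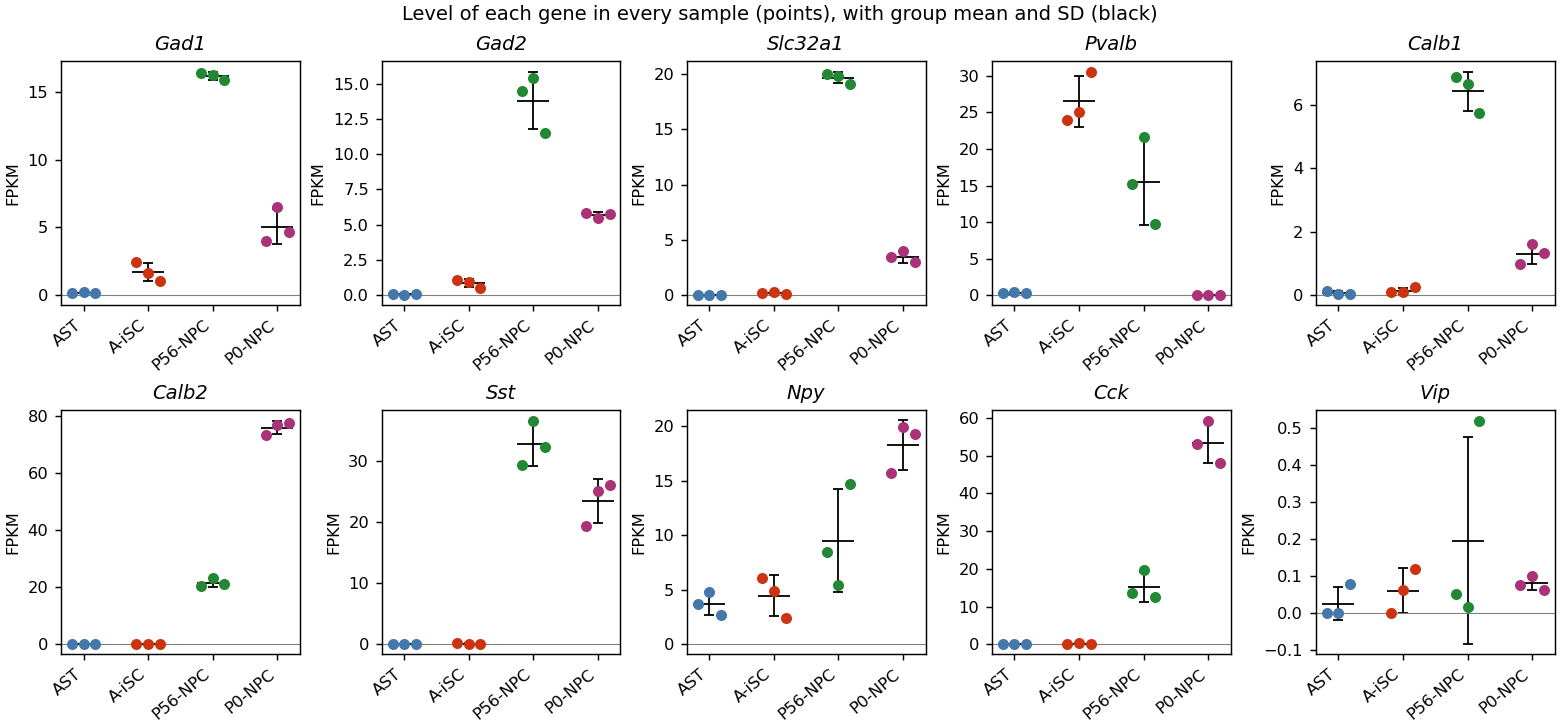
Level of each of the 10 genes in FPKM (linear axis, one scale per panel) in the 4 groups. Points are the 3 samples of a group and black marks are the group mean and SD. Pvalb alone among the 10 had its highest samples in A-iSCs (24.0 to 30.5 FPKM), and Vip stayed under 1 FPKM in all 12 samples.

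Pvalb had a different order from the GABA genes: A-iSC, P56-NPC, AST, P0-NPC, again with no overlap between neighbours. Parvalbumin is a small EF-hand protein that buffers calcium in fast-spiking interneurons. The table places its gene on the minus strand at chr15:78191114-78206400 (GRCm38). Its level was 0.286, 0.426 and 0.259 FPKM in ASTs (5, 9 and 5 fragments) and 24.0, 25.0 and 30.5 FPKM in A-iSCs (504, 620 and 851 fragments). P56-NPCs held 15.3, 21.6 and 9.74 FPKM, and P0-NPCs were listed at 0, 0.0330 and 0.0349 FPKM, from 0, 1 and 1 fragments. The mean in A-iSCs was 81.9-fold that in ASTs (95% counting interval of the fragment ratio, scaled in the same way, 52.2 to 136) and 1.71-fold that in P56-NPCs. Against P0-NPCs the ratio of summed fragments, so scaled, was 1110.3 (307 to 9174). Among all genes of the table, ranked from the highest mean level, Pvalb stood at position 15409 in ASTs, 1796 in A-iSCs, 3301 in P56-NPCs and 27217 in P0-NPCs.

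RefSeq gives Pvalb 2 start sites, and the 250 bases before each are shown because Pvalb was the gene of the set with its highest level in A-iSCs. The upstream window is at chr15:78206401-78206650 and the downstream window at chr15:78204238-78204487, both on the minus strand of GRCm38.p6. The latter lies in the first intron of the longer transcript. The deposited values are per gene and do not show which start was used. Capitals would mark a match to TGACGTCA (the cAMP response element), TATAAA (the TATA box), CAGCTG (an E-box) or TAATTA (a homeodomain core) on either strand, and neither window holds one.
Pvalb upstream start: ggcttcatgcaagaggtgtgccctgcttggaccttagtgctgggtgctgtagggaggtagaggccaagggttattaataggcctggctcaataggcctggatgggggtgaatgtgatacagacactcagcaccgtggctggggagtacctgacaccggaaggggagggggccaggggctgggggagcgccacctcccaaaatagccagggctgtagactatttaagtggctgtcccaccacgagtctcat
Pvalb downstream start: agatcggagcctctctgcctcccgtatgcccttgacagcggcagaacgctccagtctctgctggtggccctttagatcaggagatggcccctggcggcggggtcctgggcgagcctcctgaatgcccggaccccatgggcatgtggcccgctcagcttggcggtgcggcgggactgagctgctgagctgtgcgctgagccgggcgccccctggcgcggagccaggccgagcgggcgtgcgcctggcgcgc
These letters were found in 1.55%, 12.4%, 13.0% and 4.84% of all 32851 RefSeq windows of the same length, in the order given. Of the 10 genes, 8 had a RefSeq window (9 windows in all), and Calb1 and Calb2 had none.

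Markers of other cell types are given beside Pvalb. The 6 microglial markers summed to 96.5 to 127 FPKM in ASTs, 1084 to 1495 FPKM in A-iSCs, 435 to 458 FPKM in P56-NPCs and 63.6 to 73.5 FPKM in P0-NPCs. C1qa gave most of this sum in ASTs, A-iSCs (mean 1029 FPKM) and P0-NPCs, but not in P56-NPCs (mean 213 FPKM). Each of the 6 was called higher in A-iSCs over ASTs, but in A-iSCs over P56-NPCs 3 were called higher and 2 lower. The microglial genes P2ry12 and Tmem119 were highest in P56-NPCs, at 60.2 and 52.2 FPKM, against 7.30 and 16.8 FPKM in A-iSCs. The A-iSC sample with the highest Pvalb (replicate 3, 30.5 FPKM) had the lowest microglial sum (1084 FPKM) and the highest astrocyte sum (2466 FPKM) of its group. The P56-NPC samples spread from 9.74 to 21.6 FPKM of Pvalb at microglial sums of 435 to 458 FPKM, and the sample with the most Pvalb (replicate 2) had the highest sum of the 3 for 8 of the 12 marker lists, among them striatal projection neurons (80.0 FPKM against 61.9 and 52.2 FPKM) and pan-neuronal genes (494 FPKM). Skeletal muscle markers, 6 genes, summed to 1.33 to 1.97 FPKM in A-iSCs and to at most 3.84 FPKM in any sample. The part of these cell types in the Pvalb level was not tested.

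**Figure D2:**
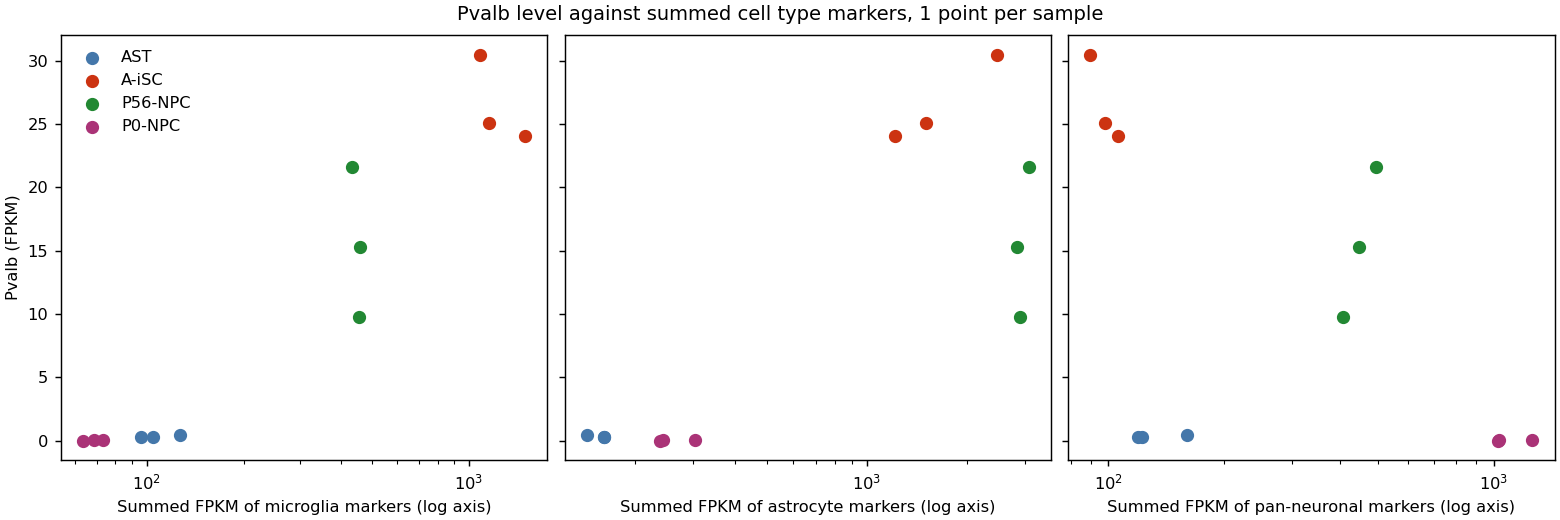
Pvalb level (FPKM, linear axis) against the summed FPKM of 6 microglial, 8 astrocyte and 12 pan-neuronal markers (log axes), 1 point per sample, coloured by group. A-iSCs combine the highest Pvalb (24.0 to 30.5 FPKM) with the highest microglial sums (1084 to 1495 FPKM), which are mostly C1qa.

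Some genes that accompany parvalbumin in interneurons are given for the same samples. Lhx6, a transcription factor of interneurons from the medial ganglionic eminence, was at 0.0155 to 0.0310 FPKM in A-iSCs, 0.213 to 0.277 FPKM in ASTs, 0.392 to 1.15 FPKM in P56-NPCs and 11.5 to 14.4 FPKM in P0-NPCs, so that it was highest in the group with the least Pvalb. Syt2, a synaptic vesicle calcium sensor of parvalbumin terminals, was below 1 FPKM in every group, at 0 to 0.0129 FPKM in ASTs, 0.00650 to 0.0293 FPKM in A-iSCs and 0.103 to 0.181 FPKM in P56-NPCs. Cplx1, which encodes a complexin of the release machinery, was at 0.180 to 0.394 FPKM in ASTs, 0.613 to 0.861 FPKM in A-iSCs and 79.8 to 116 FPKM in P56-NPCs. Cox6a2, a cytochrome oxidase subunit, was at 0.238 to 0.363 FPKM in ASTs, 0.329 to 1.39 FPKM in A-iSCs and 4.73 to 7.79 FPKM in P56-NPCs. These genes were named for their known link to parvalbumin interneurons after their values were seen. Not all interneuron genes followed here were low in A-iSCs. Sox6, another interneuron transcription factor, was at 5.74 to 9.97 FPKM in A-iSCs and 3.65 to 4.56 FPKM in P56-NPCs. Erbb4 and Nxph1, which rose over ASTs, are given below.

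Calb1 and Calb2, the other calcium-buffering proteins of the set, stayed low in both astrocyte-derived groups. Calb1 was at 0.135, 0.0305 and 0.0444 FPKM in ASTs and 0.0921, 0.0868 and 0.254 FPKM in A-iSCs, and these ranges overlapped. In P56-NPCs it was at 6.87, 6.67 and 5.74 FPKM and in P0-NPCs at 0.983, 1.61 and 1.34 FPKM. The adult suspension thus had 4.90 times the neonatal mean of Calb1. Calb2 ran the other way between the suspensions, with 20.4, 23.4 and 21.2 FPKM in P56-NPCs and 73.3, 76.8 and 77.7 FPKM in P0-NPCs, 3.51-fold higher in the latter. It was at 0.0342, 0.0566 and 0.0927 FPKM in ASTs, from 1, 2 and 3 fragments, and at 0.199, 0.217 and 0.171 FPKM in A-iSCs, from 7, 9 and 8 fragments. The A-iSC values all lay above those of ASTs, at 3.20 times the mean, but 111-fold below P56-NPCs. In A-iSCs, then, Pvalb was the only one of the 3 calcium-binding genes above 1 FPKM.

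The peptide genes fell into patterns of their own. Sst had 0 fragments in all 3 AST samples, which allows up to 0.205 to 0.248 FPKM per sample (3 fragments), and 3, 0 and 2 fragments in the A-iSC samples (0.206, 0 and 0.103 FPKM). It was at 29.4, 36.6 and 32.4 FPKM in P56-NPCs and at 19.3, 25.2 and 26.1 FPKM in P0-NPCs. Taken at the floor of 3 fragments per AST sample, the suspensions were at least 145-fold and at least 104-fold higher than ASTs. A difference between ASTs and A-iSCs was not detectable at this depth. Sst is shown with 30 bases around its cAMP response element, the element through which this gene is known to be induced, because it is the only match to TGACGTCA among the 9 windows of these genes. The stretch lies at chr16:23890874-23890903 on the minus strand of GRCm38.p6, and the element, in capitals, begins 48 bases before the RefSeq start. The annotation behind the FPKM starts Sst further upstream, at chr16:23890958, so by that annotation the element lies inside the gene.
Sst: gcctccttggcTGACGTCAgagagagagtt

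Npy was the only gene of the 10 above 1 FPKM in every sample. It was at 3.69, 4.79 and 2.66 FPKM in ASTs and 6.05, 4.90 and 2.44 FPKM in A-iSCs, and these ranges overlapped. P56-NPCs held 8.45, 5.39 and 14.7 FPKM and P0-NPCs 15.7, 19.9 and 19.2 FPKM. The P56-NPC samples overlapped A-iSCs but not P0-NPCs. Cck was at 0.0914, 0.113 and 0.206 FPKM in ASTs and 0.152, 0.258 and 0.143 FPKM in A-iSCs, on 2 to 8 fragments per sample. It stood at 13.5, 19.7 and 12.5 FPKM in P56-NPCs and 53.2, 59.1 and 48.1 FPKM in P0-NPCs, so that the neonatal suspension held 3.51 times the adult mean, as for Calb2. Vip never reached 1 FPKM. Its highest value was 0.518 FPKM (29 fragments) in P56-NPC replicate 3, the replicate that also had the most Npy, and its other values lay between 0 and 0.121 FPKM.

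Set side by side, the 10 genes made up a different mixture in each group. The summed level was 3.57 to 5.68 FPKM in ASTs, 33.5 to 35.5 FPKM in A-iSCs, 143 to 165 FPKM in P56-NPCs and 176 to 199 FPKM in P0-NPCs. In ASTs, Npy gave 74.6 to 84.4% of the sum. Pvalb gave 69.7 to 86.0% of it in A-iSCs, 6.80 to 13.1% in P56-NPCs and at most 0.0188% in P0-NPCs. Without Pvalb, the sum was 4.97 to 10.5 FPKM in A-iSCs, and the 3.31 to 5.25 FPKM of ASTs overlapped it. Sst was the largest part in P56-NPCs (20.3 to 22.6%), and Calb2 (38.7 to 41.8%) with Cck (25.9 to 30.2%) led in P0-NPCs.

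**Figure D3:**
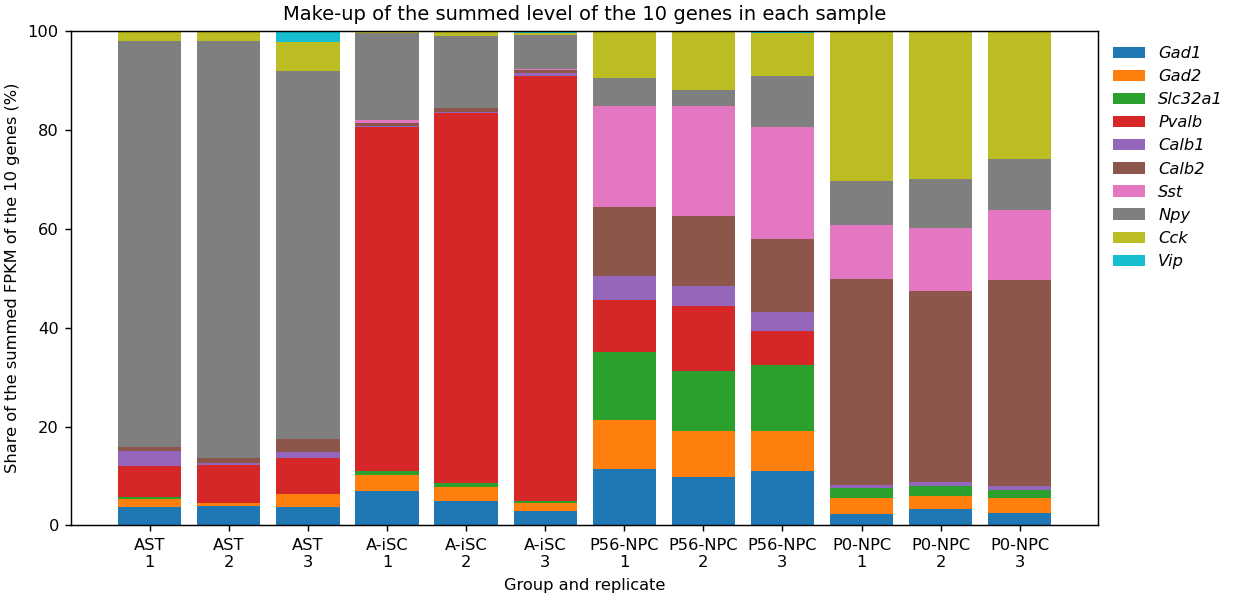
Stacked bars of each gene's share (%) of the summed FPKM of the 10 genes, 1 bar per sample, by group and replicate. Npy fills most of the AST bars, Pvalb 69.7 to 86.0% of the A-iSC bars, and P56-NPCs and P0-NPCs are split among several genes.

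Likeness over the 12 samples, as Pearson's r of log2(FPKM + 1) against 13651 protein-coding genes, was computed for each gene that reached a mean of 1 FPKM. The points share libraries and fall into 4 groups, so r mostly reflects the group means and is given as a description. The genes most like Pvalb were Abi3 (r = 0.989), Cx3cr1 (r = 0.988) and Rnase4 (r = 0.986). Cx3cr1, the fractalkine receptor of microglia and one of the 6 microglial markers, was at 7.17 FPKM ± 0.680 in ASTs, 61.1 ± 6.70 in A-iSCs, 40.7 ± 3.60 in P56-NPCs and 4.35 ± 1.15 in P0-NPCs (SD, n = 3 each). Gad2 was most like Sv2a (r = 0.996), a synaptic vesicle protein, Slc32a1 most like Lgi1 (r = 0.997), a secreted synaptic protein, and Calb1 most like Vsnl1 (r = 0.998), a neuronal calcium sensor. Gad1 was most like Lrrc34 (r = 0.996), Sst most like Jph4 (r = 0.999) and Npy, less closely, most like Asprv1 (r = 0.961). Calb2 and Cck shared their nearest gene, Celf6 (r = 0.999 for both), and correlated with each other at r = 0.998. Among the 10 genes, Gad1 and Gad2 (r = 0.979) and Slc32a1 and Calb1 (r = 0.990) also ran close together, whereas Pvalb had r between -0.35 and 0.33 with the others that reached 1 FPKM.

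To place these differences among all genes, groups were compared 2 at a time with limma on log2(FPKM + 1), over genes with a mean of at least 1 FPKM in either group and a gene was called when its adjusted p (Benjamini-Hochberg) was under 0.05. The comparisons share groups, and a log2 difference on this scale understates the change of low genes. For A-iSCs over ASTs, 54.8% of 14087 genes were called, 25.2% higher and 29.6% lower. Of the 10 genes 3 passed the filter, and their log2 differences were 4.37 for Pvalb (SE 0.13), 1.18 for Gad1 (SE 0.19) and 0.17 for Npy (SE 0.29). Sample ranges did not overlap for 5 of the 10 (Gad1, Gad2, Slc32a1, Pvalb and Calb2), beside 41.6% of the 30439 genes above 0 in any sample of these 2 groups.

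P56-NPCs over ASTs had 78.9% of 15146 genes called (39.1% higher, 39.8% lower), and the 9 genes of the set that passed the filter had log2 differences from 1.08 (Npy, SE 0.33) to 5.07 (Sst, SE 0.09). P0-NPCs over ASTs had 79% of 15010 called (38.1% higher, 40.9% lower), and the 8 of the set that passed the filter were higher by up to 6.18, for Calb2 (SE 0.07). A-iSCs over P56-NPCs had 61% of 15044 called (30.1% higher, 30.9% lower), and of 9 that passed the filter only Pvalb had a difference above 0, of 0.79 (SE 0.26), which ranged from 0.51 to 1.32 over 13 alternatives. This Pvalb difference passed the threshold of the all-gene fit as reported but in only 6 of the 13 alternatives. It missed it with the replicate block, without the filter, and on leaving out any 1 A-iSC sample, P56-NPC replicate 1 or P56-NPC replicate 3. Because Pvalb was chosen by values of these same samples, neither passing nor missing the threshold is read as a result. A-iSCs over P0-NPCs had 65.1% of 15170 called (31.5% higher, 33.6% lower), and of 9 that passed the filter only Pvalb had a difference above 0, of 4.74 (SE 0.12). P56-NPCs over P0-NPCs had 78.8% of 15394 called (39.7% higher, 39% lower), and the differences of the set were above 0 except for Calb2, Npy and Cck. Since these genes were chosen with such differences in view, nothing is read from these counts.

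Scaling by library size alone moved the all-gene balance. Of the called genes, the share that was higher went from 46.0 to 60.4% for A-iSCs over ASTs, from 49.5 to 37.7% for P56-NPCs over ASTs, from 48.2 to 59.4% for P0-NPCs over ASTs, from 49.4 to 74.5% for A-iSCs over P56-NPCs and from 50.4 to 26.7% for P56-NPCs over P0-NPCs. The smallest move was from 48.3 to 44.2%, for A-iSCs over P0-NPCs. Of the set, only Sst in P56-NPCs over P0-NPCs changed its direction with this scaling, from a log2 difference of 0.47 to -0.14.

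**Figure D4:**
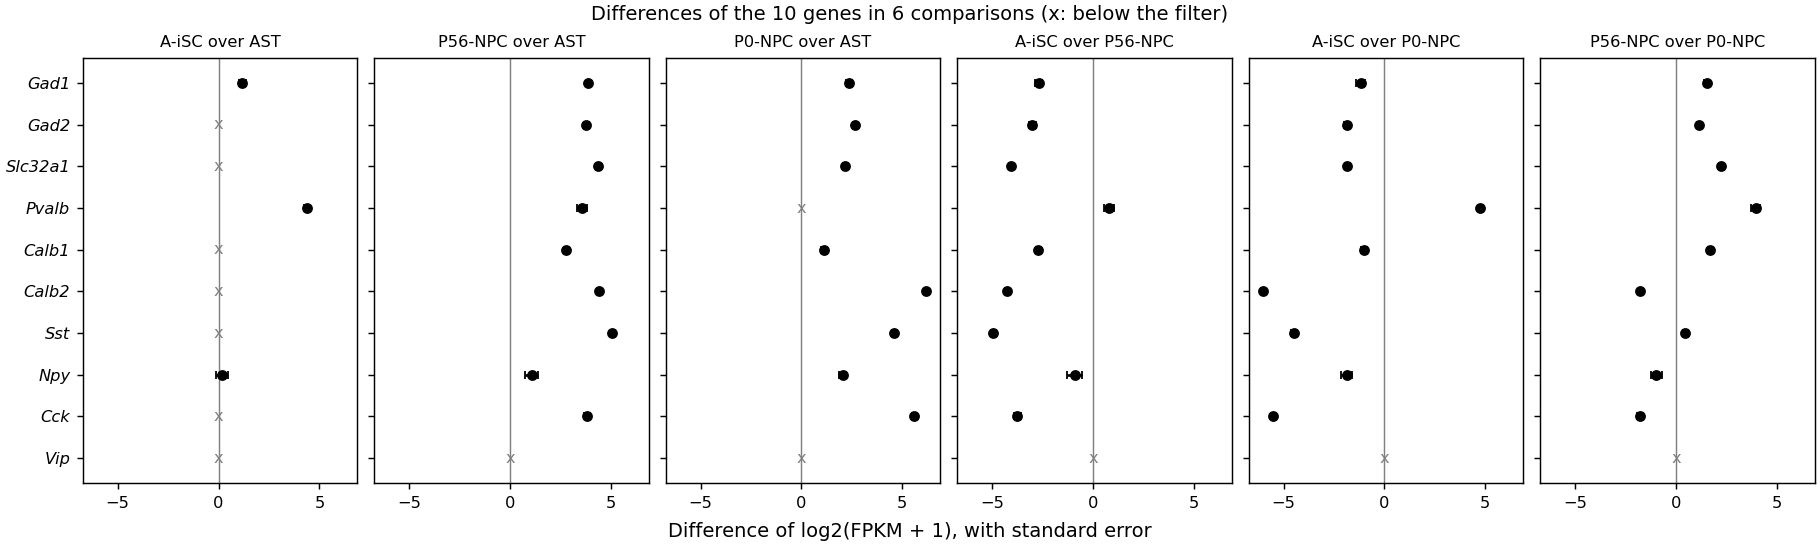
Difference of log2(FPKM + 1) of each gene in the 6 comparisons, with its standard error, on one axis. A cross marks a gene below the filter. Pvalb lies to the right of 0 in both comparisons of A-iSCs with the suspensions, where the other genes above the filter lie to the left, with the same signs under every scaling tried.

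Genes related to the set by role, 99 in 7 lists, were tested in the same fits. Not all are specific to interneurons, and 4 are also in a cell type list. They too were listed with earlier results of these data known, and 17 of them had a mean below 1 FPKM in every group. A gene below 1 FPKM in 1 group was tested only where the other group was higher. This favours 1 direction, so the counts are a description. In A-iSCs over ASTs, 27 of 52 tested rose and 15 fell, with a median log2 difference of 0.55 beside -0.06 over all tested genes. The suspensions each had 56 higher and 13 lower than ASTs, of 74 tested for P56-NPCs and 73 for P0-NPCs. A-iSCs were higher for 12 and lower for 52 of 73 against P56-NPCs, and higher for 12 and lower for 46 of 73 against P0-NPCs. The 12 higher genes against P56-NPCs became 7 without P56-NPC replicate 1. Values after ± are SDs over 3 samples, and each related gene given a fold or described as higher or lower in the following was called by limma in that comparison.

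Transcription factors of interneuron development changed in both directions in A-iSCs, with 9 of 16 tested higher and 3 lower than in ASTs. Npas1 fell by 1.46 on the log2 scale (adjusted p = 8.40e-05, limma) and Nkx2-1, the patterning factor of the medial ganglionic eminence, fell by 0.89 (adjusted p = 0.00236, limma). Dlx1, a homeobox factor of GABAergic lineages, was 15.7-fold higher in P56-NPCs and 14.9-fold higher in P0-NPCs than in ASTs. Lhx6 was 52.0-fold higher in P0-NPCs than in ASTs and 19.9-fold higher than in P56-NPCs.

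Genes of GABA uptake, breakdown and precursor supply rose in A-iSCs for 6 of 9 tested and fell for 1. Slc6a11, the GABA transporter GAT-3 of astrocytes, went from 0.0598 ± 0.0250 to 4.91 ± 2.36 FPKM (log2 difference 2.40, limma adjusted p = 0.000269), and the glutamine transporter gene Slc38a1 rose 3.37-fold (adjusted p = 0.000607, limma). Phgdh, an enzyme of serine synthesis, fell from 136 to 68.4 FPKM (adjusted p = 0.000800, limma). The level of Slc6a11 in P56-NPCs was higher still, at 323 FPKM ± 72.0. P0-NPCs had 16.9 FPKM ± 3.28 of Slc6a13, a transporter known from meninges, against 0.243 ± 0.0817 in P56-NPCs.

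Among the other EF-hand calcium-binding genes, A-iSCs had 4 higher and 4 lower than ASTs of 10 tested, with a median log2 difference of -0.16. Necab2 rose 11.0-fold and S100a1 rose 3.10-fold (limma adjusted p = 4.41e-05 and 0.00132), while Ncs1, a neuronal calcium sensor, fell from 30.7 to 9.31 FPKM and Calm2, a calmodulin gene, from 358 to 178 FPKM (limma adjusted p = 2.54e-05 and 0.000555). Against P56-NPCs, 14 of 15 tested were lower in A-iSCs and 1, Hpcal1, was higher, a call lost without P56-NPC replicate 1. The neuronal sensors Hpcal4 (0.182 against 142 FPKM) and Vsnl1 (0.353 against 76.3 FPKM) had the lowest log2(FPKM + 1) differences of this list.

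Peptides outside the set were mostly below the filter in the astrocyte-derived groups. In A-iSCs over ASTs 2 of 11 could be tested: Penk, the enkephalin precursor, fell from 1.70 ± 0.544 to 0.348 ± 0.265 FPKM and Pdyn, the dynorphin precursor, rose from 0.230 ± 0.0989 to 1.08 ± 0.611 FPKM (limma adjusted p = 0.00416 and 0.0208). The Penk call was lost with all 4 groups in the model and the Pdyn call without AST replicate 2. P56-NPCs had 6 of 6 tested peptide genes higher than ASTs and P0-NPCs had 7 of 7. Of these only Penk reached 1 FPKM in ASTs. The others passed the filter only through their level in the suspension, so a call could only be higher, and nothing is read from these counts. Grp and Tac2, at 22.4 FPKM ± 3.33 and 12.1 ± 1.93 in P0-NPCs, were at 0.496 ± 0.255 and 0.273 ± 0.141 in P56-NPCs. Genes that process peptides or build dense-core granules split evenly in A-iSCs over ASTs, 4 higher and 4 lower of 9. The granins Scg3 (7.72-fold) and Scg5 (4.63-fold) rose (limma adjusted p = 5.89e-06 and 0.000152), and Vgf fell by 1.92 and the amidating enzyme gene Pam by 1.37 on the log2 scale (limma adjusted p = 0.000322 and 0.00457). Only 2 of 12 receptors for the peptides of the set were tested in A-iSCs over ASTs, and both fell: Npy1r from 2.35 ± 0.479 to 0.158 ± 0.0610 FPKM and Sstr2 from 1.88 ± 0.264 to 1.13 ± 0.265 FPKM (limma adjusted p = 0.000111 and 0.0285). The Sstr2 call was lost in 6 of 13 alternatives (no filter, library-size or upper-quartile scaling, and without A-iSC replicate 1, AST replicate 2 or AST replicate 3).

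Other genes of interneuron classes gave 3 higher, 0 lower and 1 not called of 4 tested in A-iSCs over ASTs (limma), and 11 of the 15 were below the filter. Erbb4, the neuregulin receptor, went from 0.198 ± 0.0209 to 1.69 ± 0.603 FPKM and Nxph1, a neurexin ligand, from 0.0810 ± 0.0509 to 1.38 ± 0.237 FPKM (limma adjusted p = 0.00103 and 0.000239). Against P56-NPCs the same list had 0 higher and 8 lower in A-iSCs of 10 tested. Among the tested, Lamp5, Cplx1, Nos1, Sncg, Cnr1 and Cox6a2 passed the filter only through P56-NPCs. Reln, the extracellular protein of Cajal-Retzius cells and some interneurons, was at 27.8 FPKM ± 1.52 in P0-NPCs and at 0.437 ± 0.240 in A-iSCs.

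**Figure D5:**
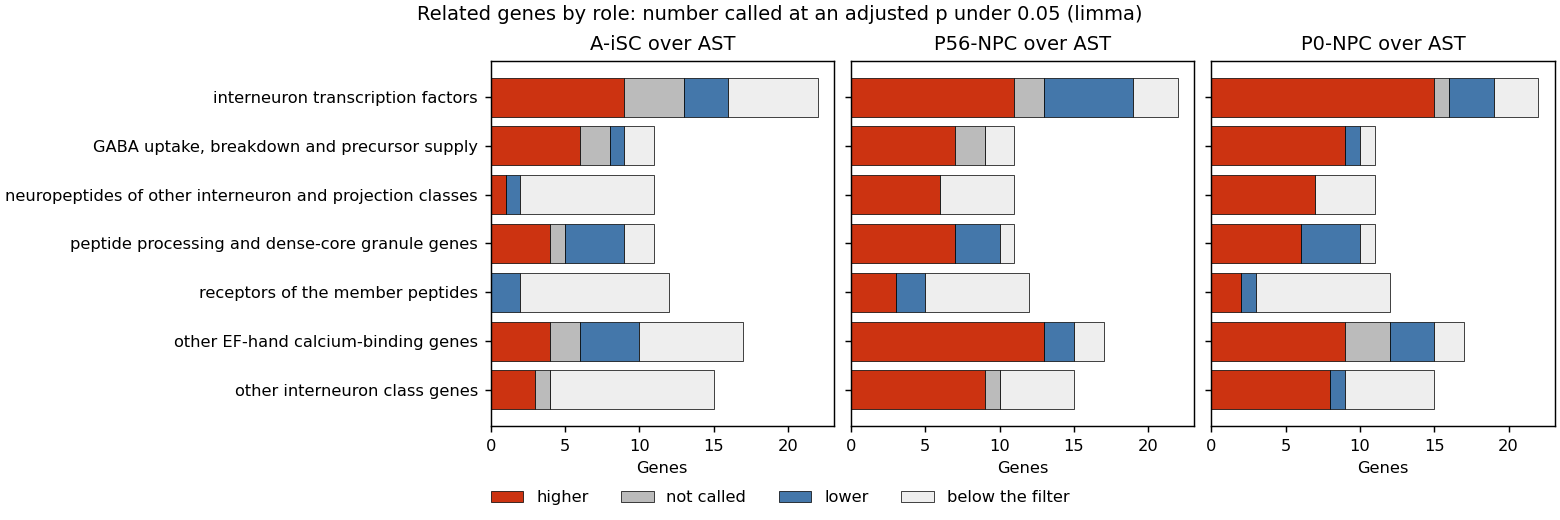
Number of related genes in each of 7 lists that were higher, not called, lower or below the filter in A-iSCs, P56-NPCs and P0-NPCs over ASTs (limma, adjusted p under 0.05). In A-iSCs, 47 of the 99 genes were below the filter, against 25 in P56-NPCs and 26 in P0-NPCs.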

How the data were processed

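RNA of 12 samples, 3 per group, was measured by paired-end sequencing of NEBNext Ultra libraries on an Illumina HiSeq. The authors deposited one table of FPKM, whose unit was found from the values: FPKM times gene length was a whole multiple of 1 step per sample (tolerance 0.01) for 100% of values in 9 samples and at least 99.9958% in the P56-NPC samples. Fragments recovered in this way served for counting intervals, floors (3 fragments) and scaling alternatives, while tests used the FPKM. The submitters' processing notes name Bowtie 0.12.2 and another mouse build. Positions of 99.5% of the 55154 gene identifiers shared with GENCODE M21 matched GRCm38, which is used here.

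The authors used DESeq2, a count test. Because the deposited table holds FPKM and not counts, the main test was limma, and limma-voom on recovered fragments was an alternative. limma 3.58.1 (R 4.3.3, lmFit and eBayes with a trend) was fitted on log2(FPKM + 1), 2 groups at a time, to genes with a mean of at least 1 FPKM in either group, with Benjamini-Hochberg adjustment. The code was tested on simulated data. Groups came from the labels, and no sample was left out. Counting intervals are exact binomial at 95% confidence. Promoter windows are RefSeq's (GRCm38.p6). The other steps ran in Python 3.11.15 (matplotlib 3.10.9, pandas 2.3.3, scipy 1.17.1).

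The genes, lists and the naming rule were chosen with earlier results of these data known. The rule named all 10 genes, per list and comparison up to 2 called genes with the largest and 2 with the smallest log2 difference, of which a part is given (a few are not reported here), and the 3 genes most like each gene. Alternatives were upper-quartile scaling, library-size scaling, no filter, all groups in the model, a replicate block, a pseudocount of 0.1, limma-voom on recovered fragments and leaving out each sample.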

Additional observations from a re-analysis of the deposited data

How the results depend on the processing

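Of 156 counts of related genes under the alternatives, 155 stayed within 1.5 times the reported count. The exception was A-iSCs over P56-NPCs, where the number higher ranged from 7 to 13 when 1 sample was left out (reported: 12), with 7 reached without P56-NPC replicate 1. The cause was not tested. Among the 10 genes, as a description, the log2 difference changed sign for Sst in P56-NPCs over P0-NPCs, to -0.14 with library-size scaling, and for Npy in A-iSCs over ASTs, which ranged from -0.04 to 0.48. Library-size scaling moved the median over all genes from 0.03 to 0.49 for A-iSCs over P56-NPCs and from 0.01 to -0.53 for P56-NPCs over P0-NPCs. Of 1779 values of named related genes, 40 were weaker and none turned, among them Npy1r in P0-NPCs over ASTs and Sstr2 in A-iSCs over ASTs under several settings.

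Replicate numbers are shared between groups, but same-numbered samples did not all deviate together: in A-iSCs over ASTs the correlations of their deviations were -0.41 for number 1 and 0.35 and 0.45 for numbers 2 and 3, and elsewhere they lay between -0.14 and 0.10. With the replicate block, 28 related genes were higher and 15 lower in A-iSCs over ASTs (27 and 15 without it), and no count of related genes left 1.5 times the reported one. With the block, Pvalb in A-iSCs over P56-NPCs no longer passed the threshold, which for a gene chosen by these values is a description only. Depth limits Sst, Slc32a1, Calb2 and Cck in the astrocyte-derived groups and Pvalb in P0-NPCs, where samples held at most 21 fragments.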
